A study of Mus musculus with 30 samples.

Results

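Among 10 genes for enzymes that lengthen or desaturate fatty acids, Elovl2 mRNA was lower in cultured mouse fetal testes with a phthalate monoester, with a retinoid and with both, while up to 6 of the others were higher. The 10 genes were 6 elongases (Elovl1, Elovl2, Elovl4, Elovl5, Elovl6 and Elovl7) and 4 desaturases (Fads1, Fads2, Scd1 and Scd2). They were chosen by name, with no measured value in the rule but with earlier results of these data known. Ensembl identifiers of the count tables were matched to mouse symbols. All 10 were found among the 49315 genes counted, and all 10 passed the filter on low counts that left 19323 genes to test.

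RNA was sequenced from C57BL/6 mouse testes dissected free of the mesonephros on gestational day 14 and cultured for 24 h. The groups were 6 libraries with mono-(2-ethylhexyl) phthalate (MEHP, 100 µM, the active metabolite of a common plasticizer), 4 with MEHP and all-trans retinoic acid at these doses (MEHP + ATRA), 5 with all-trans retinoic acid alone (ATRA, 1 µM, the vitamin A metabolite that binds retinoic acid receptors) and 15 with DMSO vehicle alone. All cultures, treated ones included, held the same dilution of DMSO. The second number in each sample title, of unstated meaning, was 525 to 599 in all MEHP libraries and 6 vehicle libraries (upper range) and 416 to 465 in all ATRA and MEHP + ATRA libraries and 9 vehicle libraries (lower range). For this reason each treatment was compared with vehicle of the same range. Replicate numbers below only name libraries. Separate animals or litters are not named in the labels, and p-values therefore reflect spread among these libraries, part of which may be technical.

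Libraries held 17551454 to 29306917 counts. Markers of Sertoli cells, germ cells and fetal Leydig cells (6 of each) were above 0 in every library. The 5 mesonephros markers summed to between 5.06 and 15.5 CPM (counts scaled to library size) over all libraries. Of the 6 Sertoli cell markers, 2 rose and 1 fell with MEHP, 4 rose and 1 fell with ATRA, and 5 rose and 1 fell with MEHP + ATRA. Of all genes tested, 4.72%, 18.1% and 29% were called in these treatments. The marker that fell was Amh each time, and the others all had positive log2 fold changes. Amh was the most abundant of the 6 and weighs most in their sum, at 768 ± 154 CPM with MEHP, against 1188 ± 237 CPM in upper-range vehicle. Summed Sertoli cell marker levels were 1265 to 1898 CPM with MEHP, against 1421 to 2331 CPM in upper-range vehicle. They were 1261 to 1749 CPM with MEHP + ATRA and 1374 to 1662 CPM with ATRA, against 1112 to 1818 CPM in lower-range vehicle. The part of cell composition in the results that follow was not tested, and in bulk RNA fewer cells of a type and less RNA per cell cannot be told apart.

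Elongases of the ELOVL family carry out the first, rate-limiting condensation of the elongation cycle in the endoplasmic reticulum, and each prefers certain chain lengths and degrees of unsaturation. Desaturases add double bonds: FADS2 and FADS1 act as the delta-6 and delta-5 steps on dietary polyunsaturated fatty acids, alternating with ELOVL5 and ELOVL2, and SCD enzymes make monounsaturated fatty acids from saturated ones. In the adult mouse testis, ELOVL2 products, the very long polyunsaturated fatty acids, are needed for spermatogenesis. Many of these genes are known targets of sterol regulatory element-binding proteins, liver X receptors or peroxisome proliferator-activated receptors, mostly from work on mouse liver.

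The sequences of the 250 bases before the annotated start (RefSeq, GRCm38.p6) are shown for Elovl2, the gene that fell, and for Elovl5, Elovl6 and Fads2, which rose with MEHP + ATRA, so that the gene that moved down can be set beside those that moved up. They run 5′ to 3′ on the strand of the gene, from chr13:41220404-41220653 (reverse strand), chr9:77917115-77917364 (forward strand), chr3:129532136-129532385 (forward strand) and chr19:10101504-10101753 (reverse strand). Capitals mark matches, on either strand, to the motifs named below.
Elovl2: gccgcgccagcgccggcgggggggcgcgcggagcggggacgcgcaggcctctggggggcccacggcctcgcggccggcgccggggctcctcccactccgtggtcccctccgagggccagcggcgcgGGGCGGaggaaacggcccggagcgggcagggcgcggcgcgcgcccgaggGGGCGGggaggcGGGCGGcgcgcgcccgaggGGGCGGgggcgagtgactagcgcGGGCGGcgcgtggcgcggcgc
Elovl5: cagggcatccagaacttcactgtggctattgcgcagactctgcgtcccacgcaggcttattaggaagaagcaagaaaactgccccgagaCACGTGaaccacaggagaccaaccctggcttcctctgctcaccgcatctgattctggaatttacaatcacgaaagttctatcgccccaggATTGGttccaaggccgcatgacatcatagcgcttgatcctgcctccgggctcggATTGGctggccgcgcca
Elovl6: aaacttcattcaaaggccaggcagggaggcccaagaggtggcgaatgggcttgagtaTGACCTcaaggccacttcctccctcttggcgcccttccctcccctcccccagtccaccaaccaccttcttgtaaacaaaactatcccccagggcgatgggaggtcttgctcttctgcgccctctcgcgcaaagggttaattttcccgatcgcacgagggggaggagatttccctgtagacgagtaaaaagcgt
Fads2: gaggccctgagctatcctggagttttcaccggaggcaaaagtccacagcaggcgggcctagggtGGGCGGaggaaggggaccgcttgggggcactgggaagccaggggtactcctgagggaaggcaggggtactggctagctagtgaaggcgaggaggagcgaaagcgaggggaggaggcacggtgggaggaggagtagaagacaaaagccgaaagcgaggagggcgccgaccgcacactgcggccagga

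The motifs searched were the CCAAT box (CCAAT), the GC box (GGGCGG), the E-box (CACGTG), a sterol regulatory element (TCACNCCAC), the nuclear receptor hexamer (AGGTCA), and the same hexamer repeated in the same direction with any 1 base or any 5 bases between the copies, which overlaps 2 matches to the hexamer alone. Of 32851 windows of the same length in the table, 33.8% held a CCAAT box, 32.7% a GC box, 6.02% an E-box, 1.05% the sterol regulatory element, 14.0% the hexamer, 0.0335% the repeat with 1 base between and 0.00913% the repeat with 5. The Elovl2 window shown was 87.2% G or C and held 5 GC boxes, all on the strand of the gene, beginning 124, 75, 63, 44 and 21 bases before the start. None of the other 6 motifs had a match in it. A second RefSeq window of Elovl2 (chr13:41220163-41220412, reverse strand, 79.6% G or C) had no match to any of the 7 motifs. The Elovl5 window, at 55.6% G or C, held 2 CCAAT boxes on the opposite strand and an E-box. The Elovl6 window (56.4% G or C) held 1 hexamer on the opposite strand, and the Fads2 window (64.8% G or C) 1 GC box. Several GC boxes were not particular to Elovl2. Among the windows not shown, Elovl1, which rose with MEHP and with MEHP + ATRA, held 5 GC boxes in 1 window and 2 in another. Elovl7 held 3 and Elovl4 held 2, and neither gene passed in any comparison. Entries were present for 7 of the 10 genes, and Fads1, Scd1 and Scd2 are named only.

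With MEHP, 6 of the 10 genes rose and 1 fell, where 4.72% of all genes tested were called in either direction (2.88% higher and 1.84% lower). Elovl1, Elovl6, Fads1, Fads2, Scd1 and Scd2 were the 6 that rose, by 0.24 to 0.43 on the log2 scale, and Elovl2 fell by 2.43. With ATRA, Fads1 and Fads2 rose and Elovl2 fell, against 18.1% of all genes called (9.06% higher and 9.03% lower). With MEHP + ATRA, Elovl1, Elovl5, Elovl6, Fads1, Fads2 and Scd2 rose and Elovl2 fell, against 29% of all genes called (14.3% higher and 14.7% lower). Between MEHP + ATRA and ATRA, Elovl6, Fads1 and Scd2 were higher and Elovl2 lower, against 3% of all genes called (1.62% higher and 1.38% lower). MEHP libraries were all higher than every upper-range vehicle library for 3 of the 10 genes (1.2% of all genes) and below them for 1 (0.637%). ATRA libraries lay above all lower-range vehicle libraries for 1 gene (4.95%) and below them for 1 (4.54%), and MEHP + ATRA libraries above them for 5 (9.14%) and below for 1 (8.5%). MEHP + ATRA libraries lay above all ATRA libraries for 5 genes (3.6%) and below for 1 (3.54%). The median log2 fold change of the 10 genes was 0.29 with MEHP, 0.30 with MEHP + ATRA and 0.11 with ATRA, beside -0.014, -0.014 and -0.00018 over all genes tested. The MEHP + ATRA and ATRA contrasts share the lower-range vehicle libraries.

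**Figure D1:**
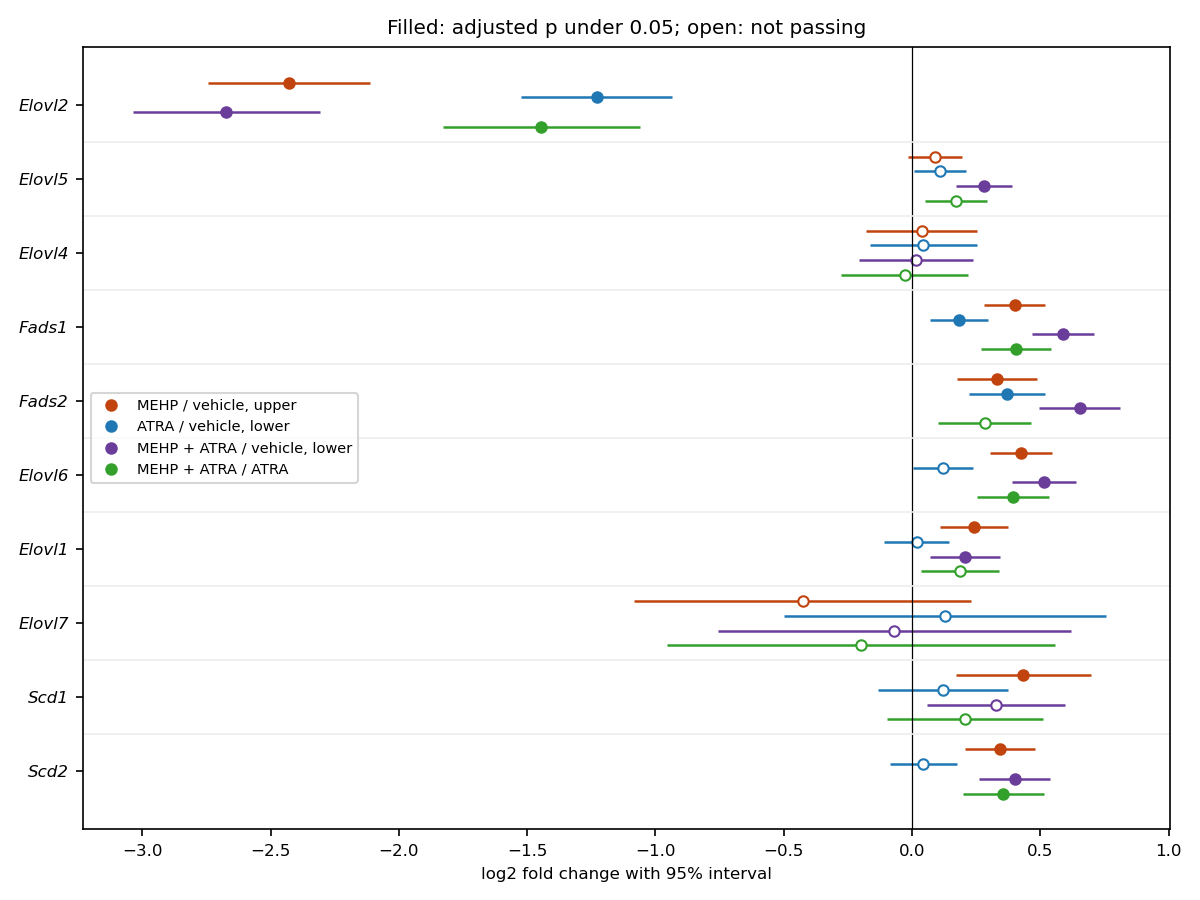
Log2 fold changes (x axis) of the 10 genes (rows) with 95% intervals in 4 comparisons, in which filled points passed an adjusted p of 0.05 and open points did not. Elovl2 lies at -2.43, -1.23, -2.67 and -1.44, apart from the others, whose filled points lie between 0.18 and 0.65.

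Elovl2 (ENSMUSG00000021364, chromosome 13, 41182495 to 41220405, reverse strand) encodes the elongase that extends long polyunsaturated fatty acids. Its mRNA ranged from 4.10 to 9.10 CPM in the 6 MEHP libraries (median 5.78), against 25.5 to 40.8 CPM in the 6 upper-range vehicle libraries (median 30.3). It was at 3.84, 3.40, 4.19 and 4.19 CPM in the 4 MEHP + ATRA libraries and at 13.9, 7.90, 11.8, 10.6 and 8.95 CPM in the 5 ATRA libraries, against 19.5 to 29.4 CPM in the 9 lower-range vehicle libraries (median 25.4). All 15 treated libraries were below all 15 vehicle libraries, and the MEHP + ATRA libraries were also all below the ATRA libraries. The vehicle ranges overlapped each other, as did MEHP with ATRA and with MEHP + ATRA.

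Mean Elovl2 levels were 5.99 ± 1.73 CPM with MEHP and 32.2 ± 6.4 CPM in upper-range vehicle (SD, n = 6 each), which is 5.38-fold lower (log2 fold change -2.43 ± 0.15 SE, adjusted p = 4.19e-12). By size of fall with MEHP, it was the third of the 19323 genes. With ATRA the mean was 10.6 ± 2.4 CPM (n = 5), against 25.0 ± 3.1 CPM in lower-range vehicle (n = 9), which is 2.34-fold lower (-1.23 ± 0.14, adjusted p = 1.15e-07). With MEHP + ATRA it was 3.91 ± 0.38 CPM (n = 4), 6.38-fold below the same vehicle (-2.67 ± 0.18, adjusted p = 3.96e-13). Its place by size of fall was 97 with ATRA and 56 with MEHP + ATRA, so more genes fell further in the groups with the retinoid. MEHP + ATRA was also 2.72-fold below ATRA alone (-1.44 ± 0.19, adjusted p = 1.45e-05). These calls held in every fit that left out 1 library and in all 8 other settings. Each Elovl2 value rested on 73 to 767 reads a library.

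**Figure D2:**
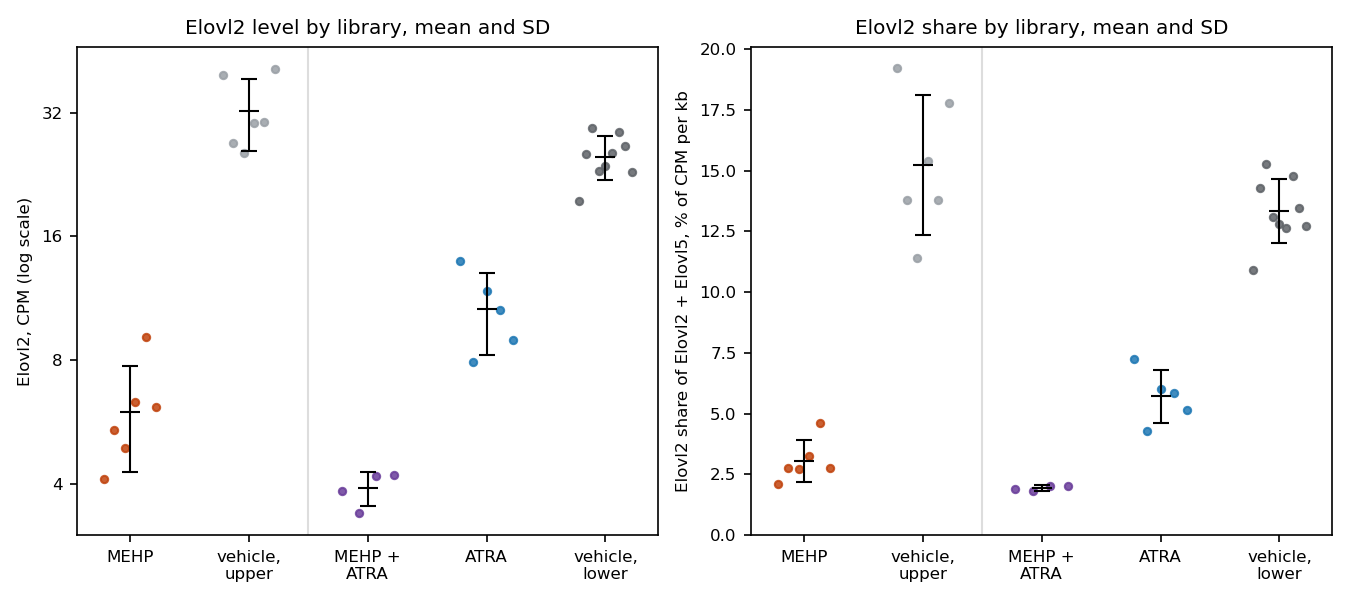
Left, Elovl2 level per library in CPM on a log axis, and right, Elovl2 as a share of Elovl2 plus Elovl5 in CPM per kilobase, with 1 point a library and bars for mean and SD. Vehicle libraries sit between 19.5 and 40.8 CPM and all treated libraries between 3.40 and 13.9 CPM.

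Elovl5 (ENSMUSG00000032349, chromosome 9, 77917364 to 77984519, forward strand) encodes the elongase that acts before ELOVL2 on polyunsaturated fatty acids. It moved the other way from Elovl2 with MEHP + ATRA, where it was at 180.2, 169.6, 184 and 186 CPM, against 139 to 161 CPM in lower-range vehicle (median 148). The groups did not overlap, and it rose by 0.28 ± 0.05 on the log2 scale (adjusted p = 0.000101). With MEHP it averaged 175 ± 12 CPM, against 164 ± 13 CPM in upper-range vehicle (0.09 ± 0.05, adjusted p = 0.441), and with ATRA 159.8 ± 7.0 CPM, against 148 ± 7 CPM in lower-range vehicle (0.11 ± 0.05, adjusted p = 0.144). Neither passed, and the 95% intervals were -0.01 to 0.20 and 0.01 to 0.21. Per kilobase of exon, Elovl2 made up 3.04 ± 0.86% of Elovl2 and Elovl5 together with MEHP, against 15.2 ± 2.9% in upper-range vehicle. This share was 1.94 ± 0.11% with MEHP + ATRA and 5.71 ± 1.09% with ATRA, against 13.3 ± 1.3% in lower-range vehicle.

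Elovl4 (ENSMUSG00000032262, chromosome 9, 83778692 to 83806277, reverse strand) encodes the elongase for very long chains, studied most in retina and skin. It stayed within 4.49 to 6.59 CPM in all 30 libraries and passed in no comparison (lowest adjusted p = 0.845). Its mean was 5.57 ± 0.79 CPM with MEHP, against 5.43 ± 0.75 CPM in upper-range vehicle, with an interval of -0.18 to 0.25 on the log2 scale. It was 5.36 ± 0.48 CPM with MEHP + ATRA and 5.48 ± 0.52 CPM with ATRA, against 5.30 ± 0.58 CPM in lower-range vehicle, with intervals of -0.21 to 0.24 and -0.16 to 0.25.

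Fads1 and Fads2, neighbours on chromosome 19, each rose in all 3 treatments. Fads1 (ENSMUSG00000010663, chromosome 19, 10182888 to 10196870, forward strand), the delta-5 desaturase gene, ranged from 305 to 374 CPM with MEHP (median 335), against 233 to 278 CPM in upper-range vehicle (median 257). It was at 389.8, 355, 338 and 337 CPM with MEHP + ATRA and at 249, 263, 291, 282 and 255 CPM with ATRA, against 207 to 267 CPM in lower-range vehicle (median 236). Neither group with MEHP overlapped its vehicle, whereas 3 of the 5 ATRA libraries lay within the range of theirs. Fads1 rose by 0.40 ± 0.06 with MEHP (adjusted p = 2.35e-05), by 0.59 ± 0.06 with MEHP + ATRA (adjusted p = 2.29e-09) and by 0.18 ± 0.06 with ATRA (adjusted p = 0.0186). It was also higher with MEHP + ATRA than with ATRA alone, by 0.41 ± 0.07 (adjusted p = 0.000331). The call with ATRA was lost without ATRA replicate 3 (0.15, adjusted p = 0.0861), without ATRA replicate 4 (0.16, adjusted p = 0.0617) and with no term for the number range (0.14, adjusted p = 0.0768).

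Fads2 (ENSMUSG00000024665, chromosome 19, 10064164 to 10101503, reverse strand), the delta-6 desaturase gene, begins the conversion of dietary polyunsaturated fatty acids. It ranged from 200.02 to 265 CPM with MEHP (median 230.1), against 158 to 213 CPM in upper-range vehicle (median 179). It was at 299.99, 253, 268 and 238 CPM with MEHP + ATRA and at 209, 229, 223, 229.9 and 196 CPM with ATRA, against 141 to 189 CPM in lower-range vehicle (median 169). Both groups with ATRA lay above all their vehicle libraries, and 4 of 6 MEHP libraries lay above theirs. Fads2 rose by 0.33 ± 0.08 with MEHP (adjusted p = 0.00712), by 0.65 ± 0.08 with MEHP + ATRA (adjusted p = 6.78e-08) and by 0.37 ± 0.07 with ATRA (adjusted p = 0.000343). All 4 MEHP + ATRA libraries were above the 5 ATRA libraries, with means of 265 ± 27 and 217 ± 14 CPM, but this difference of 0.28 ± 0.09 missed the threshold (adjusted p = 0.0805). It passed in 5 of the 8 other settings and without upper-range vehicle replicate 3 or 5 or lower-range vehicle replicate 7 (0.29 each, adjusted p = 0.0499, 0.0479 and 0.0469). The call with MEHP missed the threshold in a fit limited to MEHP and upper-range vehicle (0.33, adjusted p = 0.0509).

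**Figure D3:**
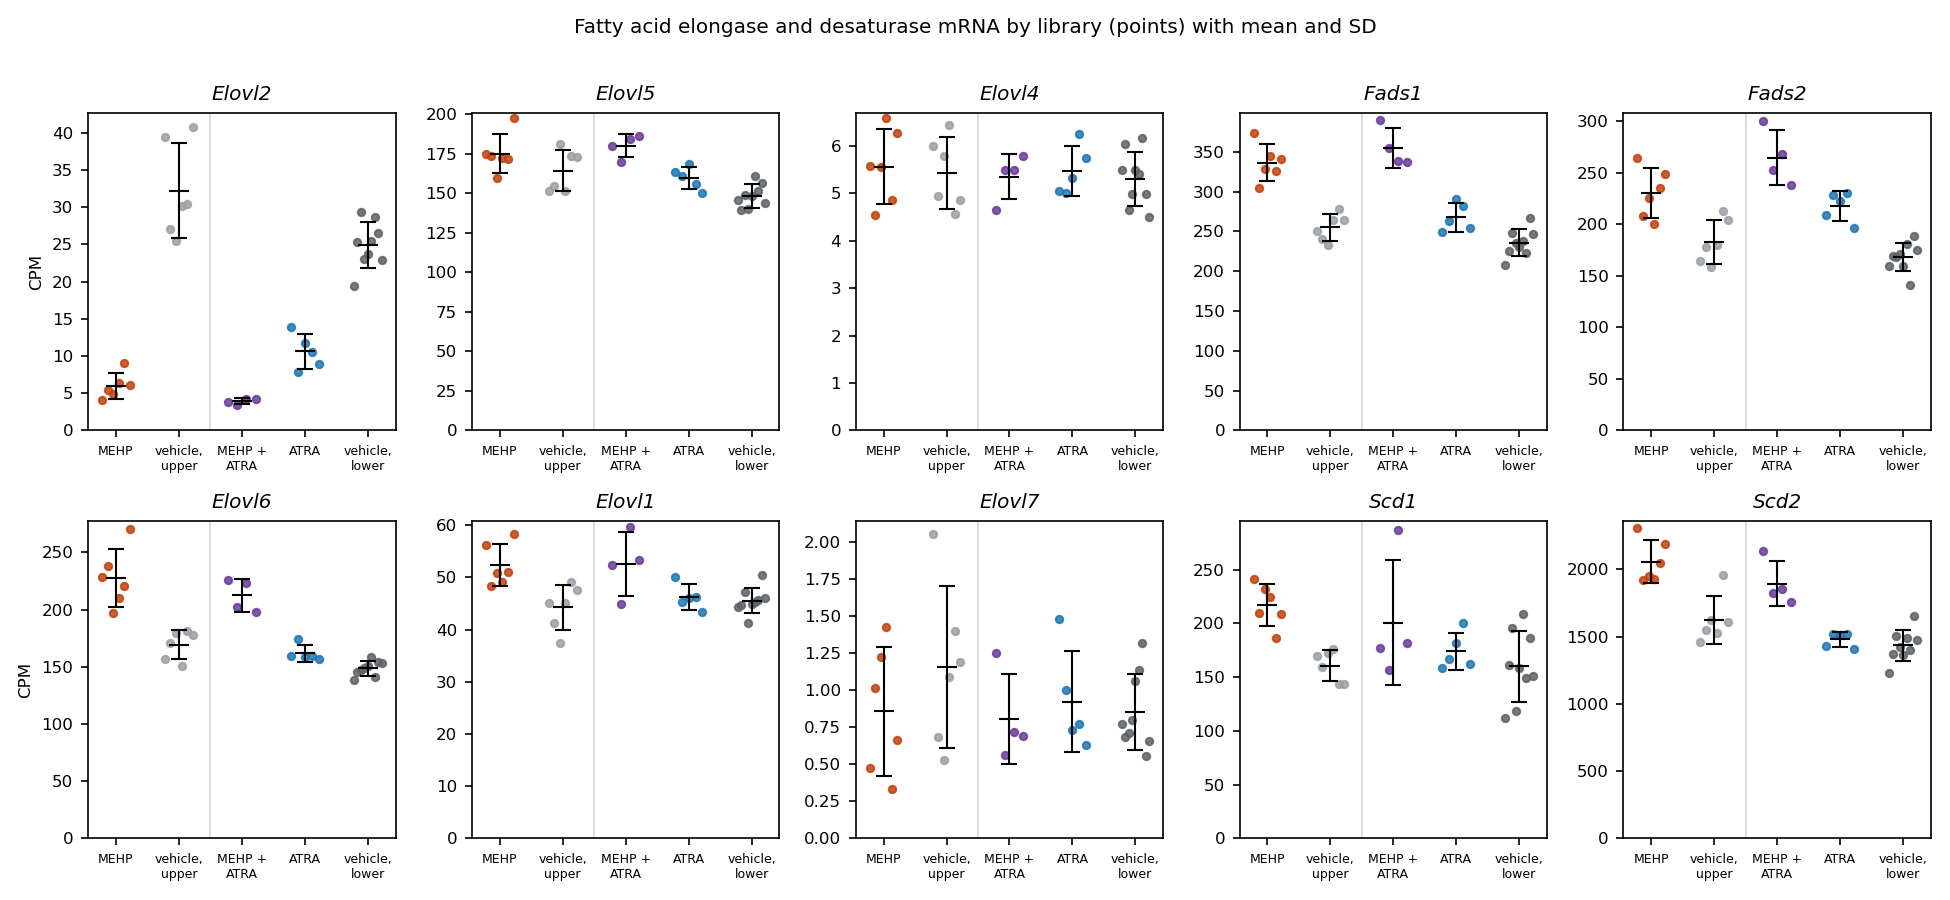
Level of each gene in CPM (y axes from 0) in each of the 30 libraries (points), with mean and SD, by treatment and by number range of the vehicle. Elovl2 is lower in each treated group, Fads1 and Fads2 are higher, and 1 MEHP + ATRA library stands apart for Scd1 at 287 CPM.

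Elovl6 (ENSMUSG00000041220, chromosome 3, 129532355 to 129638495, forward strand) encodes the elongase that turns the products of fatty acid synthase into longer saturated and monounsaturated chains. It ranged from 197 to 271 CPM with MEHP (median 225), against 151 to 181 CPM in upper-range vehicle (median 174). It was at 226, 202, 223 and 198 CPM with MEHP + ATRA and at 159.6, 174, 158, 159.8 and 157 CPM with ATRA, against 138 to 159 CPM in lower-range vehicle (median 149). The MEHP and MEHP + ATRA libraries were above every vehicle and every ATRA library. Elovl6 rose by 0.43 ± 0.06 with MEHP (adjusted p = 1.24e-05) and by 0.51 ± 0.06 with MEHP + ATRA (adjusted p = 5.44e-08). It was higher with MEHP + ATRA than with ATRA by 0.39 ± 0.07 (adjusted p = 0.000628), while with ATRA alone the change was 0.12 ± 0.06 (adjusted p = 0.157). Exons of Elovl6 overlap those of Gm35986 on the opposite strand. Since the strand setting of the counting is not given in the sources used here, their reads cannot be told apart, and Gm35986 averaged 1.48 to 1.96 CPM over the groups.

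Elovl1 (ENSMUSG00000006390, chromosome 4, 118428093 to 118432953, forward strand) encodes an elongase of saturated and monounsaturated very long chains used in sphingolipids. It ranged from 48.4 to 58.3 CPM with MEHP (median 51.0), against 37.5 to 49.1 CPM in upper-range vehicle (median 45.1), with 5 of 6 MEHP libraries above all vehicle libraries. It was at 52.3, 44.9, 59.7 and 53.4 CPM with MEHP + ATRA and at 50.1, 45.2, 46.0, 46.3 and 43.3 CPM with ATRA, against 41.3 to 50.4 CPM in lower-range vehicle (median 45.3). Elovl1 rose by 0.24 ± 0.06 with MEHP (adjusted p = 0.0235) and by 0.21 ± 0.07 with MEHP + ATRA (adjusted p = 0.0178), and its change with ATRA was 0.02 ± 0.06 (adjusted p = 0.898). The call with MEHP was lost without MEHP replicate 1 or 6 (0.22 and 0.21, adjusted p = 0.0726 and 0.0813), without upper-range vehicle replicate 2 or 3 (0.22 and 0.20, adjusted p = 0.0617 and 0.0514) and when only these 2 groups were fitted (0.25, adjusted p = 0.105). The call with MEHP + ATRA was lost without MEHP + ATRA replicate 3 (0.14, adjusted p = 0.139). Exons of Elovl1 overlap those of Cdc20, a cell-cycle gene on the opposite strand, which averaged 136 ± 12 CPM with MEHP, against 143 ± 9 CPM in upper-range vehicle (-0.07 ± 0.05, adjusted p = 0.669). Cdc20 averaged 151 ± 7 CPM with MEHP + ATRA, against 139.6 ± 6.7 CPM in lower-range vehicle (0.11 ± 0.06, adjusted p = 0.149), a value of the same sign as that of Elovl1. Its part in the Elovl1 values was not tested.

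Elovl7 (ENSMUSG00000021696, chromosome 13, 108214404 to 108287105, forward strand), another elongase of saturated chains, was the least abundant of the 10. Its counts were 6 to 39 a library and its level 0.33 to 2.05 CPM. It passed in no comparison (lowest adjusted p = 0.535), with intervals as wide as -1.08 to 0.23 on the log2 scale with MEHP.

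Scd1 (ENSMUSG00000037071, chromosome 19, 44394451 to 44407709, reverse strand) encodes a stearoyl-CoA desaturase, the delta-9 enzyme that makes oleate, and is the main form in mouse liver and fat. It ranged from 186 to 241 CPM with MEHP (median 218), against 143 to 177 CPM in upper-range vehicle (median 164), and the groups did not overlap. It was at 177, 157, 287 and 182 CPM with MEHP + ATRA and at 158, 167, 182, 200.1 and 163 CPM with ATRA, against 112 to 209 CPM in lower-range vehicle (median 158). Only MEHP + ATRA replicate 3 lay above the lower-range vehicle libraries. Scd1 rose by 0.43 ± 0.13 with MEHP (adjusted p = 0.0465). Its change was 0.33 ± 0.13 with MEHP + ATRA (adjusted p = 0.0624) and 0.12 ± 0.12 with ATRA (adjusted p = 0.603).

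The Scd1 call with MEHP was close to the threshold. It was lost in 15 of the 30 fits without 1 library (log2 fold change 0.40 to 0.47, adjusted p up to 0.116), namely those without MEHP replicate 1, 2, 3, 4 or 6, upper-range vehicle replicate 1, 2, 4, 5 or 6, lower-range vehicle replicate 2, 5 or 9, ATRA replicate 2 or MEHP + ATRA replicate 4, and with limma-voom (0.44, adjusted p = 0.101). The MEHP + ATRA value passed in 5 of the 8 other settings, among them DESeq2 (0.33, adjusted p = 0.0463), limma-voom (0.41, adjusted p = 0.0135) and no range term (0.32, adjusted p = 0.0406). It also passed without MEHP + ATRA replicate 1 or 2 (0.39 and 0.44, adjusted p = 0.0496 and 0.0197) or lower-range vehicle replicate 3, 6 or 8 (0.37, 0.38 and 0.37, adjusted p = 0.0335, 0.0244 and 0.0381). Without MEHP + ATRA replicate 3 it was 0.11 (adjusted p = 0.596). That library also had the highest level in its group of each of 4 fat cell markers. Adipoq, which encodes adiponectin, was at 12.9 CPM there and 6.24 to 7.17 CPM in the other 3, and Cidec, a lipid droplet gene, at 17.3 CPM and 6.01 to 6.31 CPM. Plin1, another lipid droplet gene, was at 47.8 CPM there and 37.1 to 42.5 CPM in the other 3, and Retn, which encodes resistin, at 0.855 CPM and 0.611 to 0.745 CPM. As a group, MEHP + ATRA libraries had less Retn, at 0.715 ± 0.110 CPM, against 1.22 ± 0.24 CPM in lower-range vehicle (-0.78 ± 0.23, adjusted p = 0.0104), and the other 3 markers missed the threshold there. The 5 fat cell markers, of which 4 were above 0 in every library of each group, summed to 50.3 to 78.9 CPM with MEHP + ATRA and 60.8 to 76.3 CPM with ATRA, against 52.9 to 83.8 CPM in lower-range vehicle. Their sum was 69.7 to 89.7 CPM with MEHP, against 66.2 to 84.7 CPM in upper-range vehicle. The part of fat cells in the Scd1 values was not tested.

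Scd2 (ENSMUSG00000025203, chromosome 19, 44293676 to 44306864, forward strand) encodes a second delta-9 desaturase, the main form in mouse embryos. It was the most abundant of the 10 genes, at 1923 to 2305 CPM with MEHP (median 1996), against 1458 to 1960.1 CPM in upper-range vehicle (median 1577). Only vehicle replicate 5 reached the MEHP range. With MEHP + ATRA it was at 2136, 1820.8, 1855 and 1754 CPM and with ATRA at 1432, 1515, 1514, 1519 and 1410.2 CPM, against 1228 to 1653 CPM in lower-range vehicle (median 1424). The MEHP + ATRA libraries were all above the ATRA and lower-range vehicle libraries, which overlapped each other. Scd2 rose by 0.34 ± 0.07 with MEHP (adjusted p = 0.00111) and by 0.40 ± 0.07 with MEHP + ATRA (adjusted p = 2.53e-05), and was higher with MEHP + ATRA than with ATRA by 0.36 ± 0.08 (adjusted p = 0.00594). With ATRA alone its change was 0.04 ± 0.06 (adjusted p = 0.738). Its exons overlap Mir5114, which had 0 counts over all 30 libraries. Scd1 made up 10.7 ± 1.0% of Scd1 and Scd2 together per kilobase with MEHP, against 10.2 ± 1.5% in upper-range vehicle, so the balance of the pair moved by less than its spread.

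The design also asked whether the MEHP effect depended on ATRA. This was tested as the difference between the MEHP + ATRA over ATRA and the MEHP over upper-range vehicle log2 fold changes, for which 0.0311% of all genes were called. None of the 10 genes passed with edgeR, 1 had an unadjusted p under 0.05, and DESeq2 called 1 (of 12 over all genes) and limma-voom 0 (of 8). That gene was Elovl2, whose single changes of -2.43 and -1.23 sum to -3.66, while the change with both was -2.67. The difference of 0.98 ± 0.24 (95% interval 0.49 to 1.48, unadjusted p = 0.000308) had an adjusted p of 0.289, and of 0.0472 with DESeq2. Over fits without 1 library it was 0.89 to 1.14 (adjusted p = 0.0525 to 0.473). For the other 9 genes it lay between -0.23 for Scd1 and 0.23 for Elovl7. The narrowest intervals around it were those of Elovl5 (-0.08 to 0.24), Fads1 (-0.18 to 0.19) and Elovl6 (-0.22 to 0.15).

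**Figure D4:**
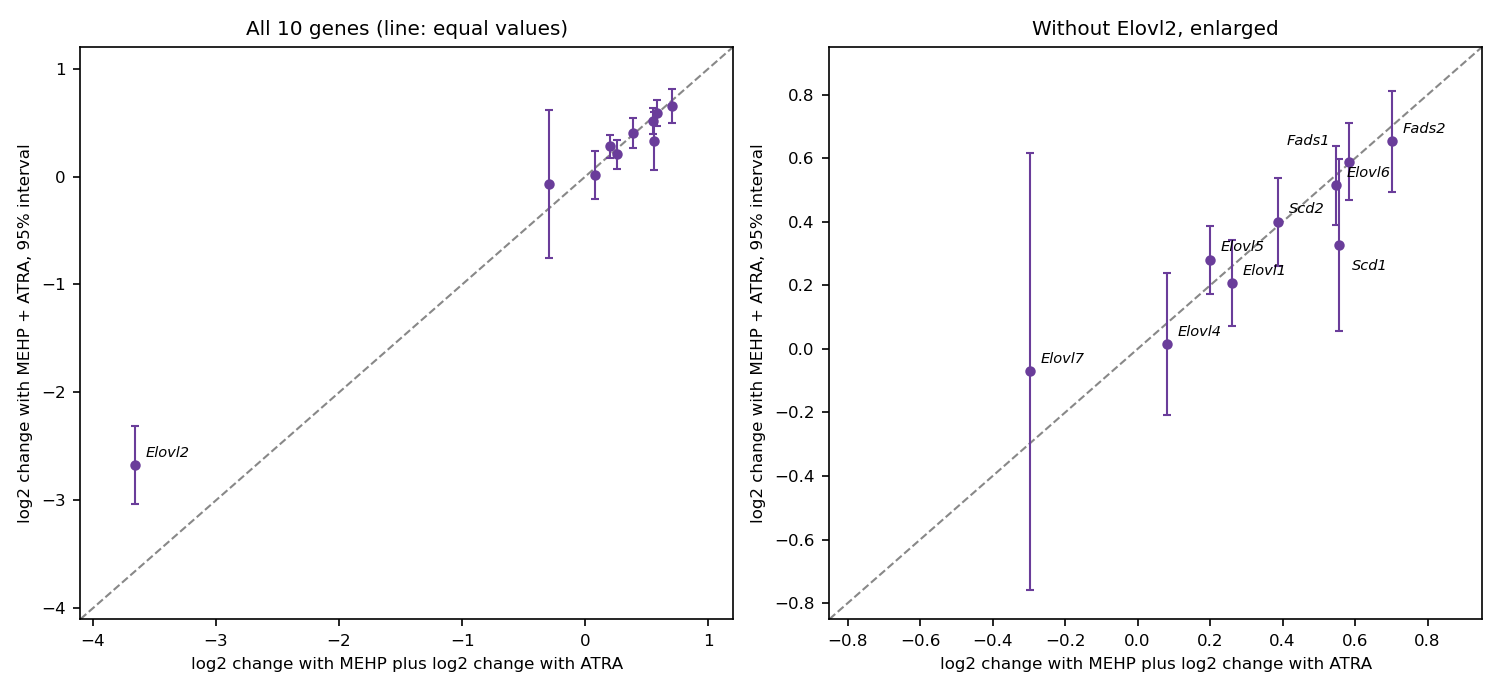
The log2 fold change with MEHP + ATRA (y axis, 95% intervals) against the sum of the log2 fold changes with MEHP and with ATRA alone (x axis), for all 10 genes on the left and without Elovl2 on the right. Elovl2 lies at -2.67 above the line of equal values for a sum of -3.66, and the others lie near that line.

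Between the vehicle libraries of the upper and lower ranges, 0 of the 10 genes differed with edgeR, against 0.373% of all genes. DESeq2 called 1 (Elovl6), where it called 338 of all 19323 genes, and limma-voom 0, where it called 136. An unadjusted edgeR p under 0.05 was found for 5, and the share of all genes under that cut is not given here. These 5 were Elovl2 (0.37 ± 0.13, adjusted p = 0.171), Elovl5 (0.15 ± 0.05, adjusted p = 0.139), Elovl6 (0.19 ± 0.05, adjusted p = 0.0987), Fads1 (0.11 ± 0.05, adjusted p = 0.348) and Scd2 (0.18 ± 0.06, adjusted p = 0.170), each with the higher mean in the upper range. The meaning of the ranges is not stated, and since every MEHP library was in the upper range, MEHP was compared with upper-range vehicle only.

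Per kilobase of exon, the order of levels in upper-range vehicle was Scd2 (297 ± 32 CPM per kilobase), Fads2 (121 ± 14), Fads1 (73.8 ± 4.9), Elovl5 (46.6 ± 3.7), Scd1 (33.2 ± 3.0), Elovl6 (26.3 ± 2.0), Elovl1 (16.2 ± 1.6), Elovl2 (8.37 ± 1.66), Elovl4 (1.80 ± 0.25) and Elovl7 (0.21 ± 0.10). No neighbours in that order overlapped across the 6 libraries. The order was the same in lower-range vehicle, where Scd1 overlapped both Elovl5 and Elovl6. Elovl2 and Elovl4 changed places in 2 treated groups. With MEHP, Elovl4 was at 1.84 ± 0.26 and Elovl2 at 1.56 ± 0.45 CPM per kilobase, and their libraries overlapped. With MEHP + ATRA, Elovl4 was at 1.77 ± 0.16 and Elovl2 at 1.01 ± 0.10, with no overlap.

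Other genes of the pathway were read from lists of the elongase and desaturase relatives, their partner enzymes and the steps before and after them. Of 7 other elongases and desaturases, 1 rose with MEHP and 1 with ATRA, in both cases Elovl3, an elongase of skin and brown fat. With MEHP + ATRA, 3 rose and 1 fell. Elovl3 was at 7.14 ± 1.09 CPM with MEHP, against 4.29 ± 1.01 CPM in upper-range vehicle (0.73 ± 0.15, adjusted p = 0.00187). It was at 10.3 ± 1.9 CPM with MEHP + ATRA and 6.33 ± 1.15 CPM with ATRA, against 4.47 ± 0.62 CPM in lower-range vehicle (1.21 ± 0.14 and 0.50 ± 0.14, adjusted p = 7.28e-08 and 0.00965). Elovl3 thus moved the opposite way from Elovl2 in each treatment. The gene that fell with MEHP + ATRA was Degs2, a sphingolipid desaturase and hydroxylase gene (-0.39 ± 0.09, adjusted p = 0.00163), and Scd4, another stearoyl-CoA desaturase gene, rose (0.59 ± 0.19, adjusted p = 0.0167) at 1.48 ± 0.15 CPM with MEHP + ATRA, against 0.989 ± 0.320 CPM in lower-range vehicle.

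The other 3 reactions of the elongation cycle are carried out by the ketoacyl reductase HSD17B12, the dehydratases HACD1 to HACD4 and the enoyl reductase TECR. Of 6 tested genes for them, 2 rose with MEHP, 5 with MEHP + ATRA and 2 with ATRA. The shares of all genes called were 4.72%, 29% and 18.1% in that order. Hsd17b12 rose by 0.24 ± 0.07 and Tecr by 0.16 ± 0.04 with MEHP (adjusted p = 0.0277 each), and by 0.30 ± 0.07 and 0.18 ± 0.04 with MEHP + ATRA (adjusted p = 0.000866 and 0.00224). Hacd2 rose with MEHP + ATRA by 0.22 ± 0.05 and with ATRA by 0.20 ± 0.05 (adjusted p = 0.0017 and 0.00355), and Hacd3 with ATRA by 0.15 ± 0.04 (adjusted p = 0.0177). Among 6 genes for the cytochrome b5 and reductases that pass electrons to desaturases, 1 rose with ATRA and 3 with MEHP + ATRA. Cyb5b, the outer mitochondrial membrane cytochrome b5, rose by 0.35 ± 0.06 with MEHP + ATRA (adjusted p = 2.18e-05), and Cyb5r4 by 0.22 ± 0.07 (adjusted p = 0.0276). Cyb5r2 rose by 1.91 ± 0.28 with MEHP + ATRA and 1.11 ± 0.28 with ATRA (adjusted p = 2.71e-06 and 0.00473), at no more than 1.46 CPM on average.

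Of 5 long-chain acyl-CoA synthetase genes, whose enzymes activate the substrates of both reactions, 2 rose with MEHP, 2 with MEHP + ATRA and 2 with ATRA, where 1 also fell. Among all genes tested, 4.72%, 29% and 18.1% were called in that order. Acsl4, which prefers arachidonate, rose by 0.70 ± 0.08 with MEHP, 0.86 ± 0.08 with MEHP + ATRA and 0.40 ± 0.07 with ATRA (adjusted p = 1.5e-07, 1.61e-10 and 0.000102). Acsl3 rose by 0.39 ± 0.07 with MEHP, 0.65 ± 0.07 with MEHP + ATRA and 0.36 ± 0.07 with ATRA (adjusted p = 0.000663, 2.94e-08 and 0.000266). Acsl5 fell with ATRA (-0.44 ± 0.06, adjusted p = 4.34e-06). Of 10 fatty acid synthesis genes, 3 rose with MEHP, 5 with MEHP + ATRA and 4 with ATRA, against the same shares of all genes. Acss2, which makes acetyl-CoA from acetate, had the smallest p in each: 0.91 ± 0.07 with MEHP, 1.00 ± 0.07 with MEHP + ATRA and 0.28 ± 0.07 with ATRA (adjusted p = 2.65e-10, 6.97e-13 and 0.00238). Fasn, the fatty acid synthase gene, rose by 0.34 ± 0.09 with MEHP, 0.63 ± 0.09 with MEHP + ATRA and 0.34 ± 0.09 with ATRA (adjusted p = 0.0250, 3.27e-06 and 0.00528). Acly, which supplies acetyl-CoA from citrate, rose with MEHP and with MEHP + ATRA (0.35 ± 0.05 each, adjusted p = 5.44e-05 and 6.33e-06), and Acaca, the carboxylase gene, with ATRA (0.26 ± 0.07, adjusted p = 0.00487).

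Peroxisomes shorten the very long chains that elongases make. Of 9 genes for this, 1 rose with MEHP, 2 with ATRA, and 3 rose and 1 fell with MEHP + ATRA. Abcd3, a peroxisomal fatty acid transporter gene, rose by 0.28 ± 0.06 with MEHP, 0.54 ± 0.06 with MEHP + ATRA and 0.34 ± 0.06 with ATRA (adjusted p = 0.0039, 4.45e-08 and 6.59e-05). Its relative Abcd2 fell with MEHP + ATRA (-0.60 ± 0.13, adjusted p = 0.000568), and Ehhadh, a peroxisomal beta-oxidation gene, rose with MEHP + ATRA (0.45 ± 0.14, adjusted p = 0.0145). Of 15 lipogenic regulator genes, 1 rose with MEHP, 0 were called with ATRA, and 4 rose and 2 fell with MEHP + ATRA. Over all genes tested, 4.72%, 18.1% and 29% were called in these treatments. Insig1, which retains sterol regulatory element-binding proteins in the endoplasmic reticulum and is itself their target, rose by 0.42 ± 0.07 with MEHP (adjusted p = 0.000126) and by 0.45 ± 0.07 with MEHP + ATRA (adjusted p = 7.06e-06), while its change with ATRA was 0.12 ± 0.07 (adjusted p = 0.247). Insig2 (0.30 ± 0.06, adjusted p = 7.87e-05) and Srebf2 (0.37 ± 0.07, adjusted p = 0.000193) also rose with MEHP + ATRA.

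**Figure D5:**
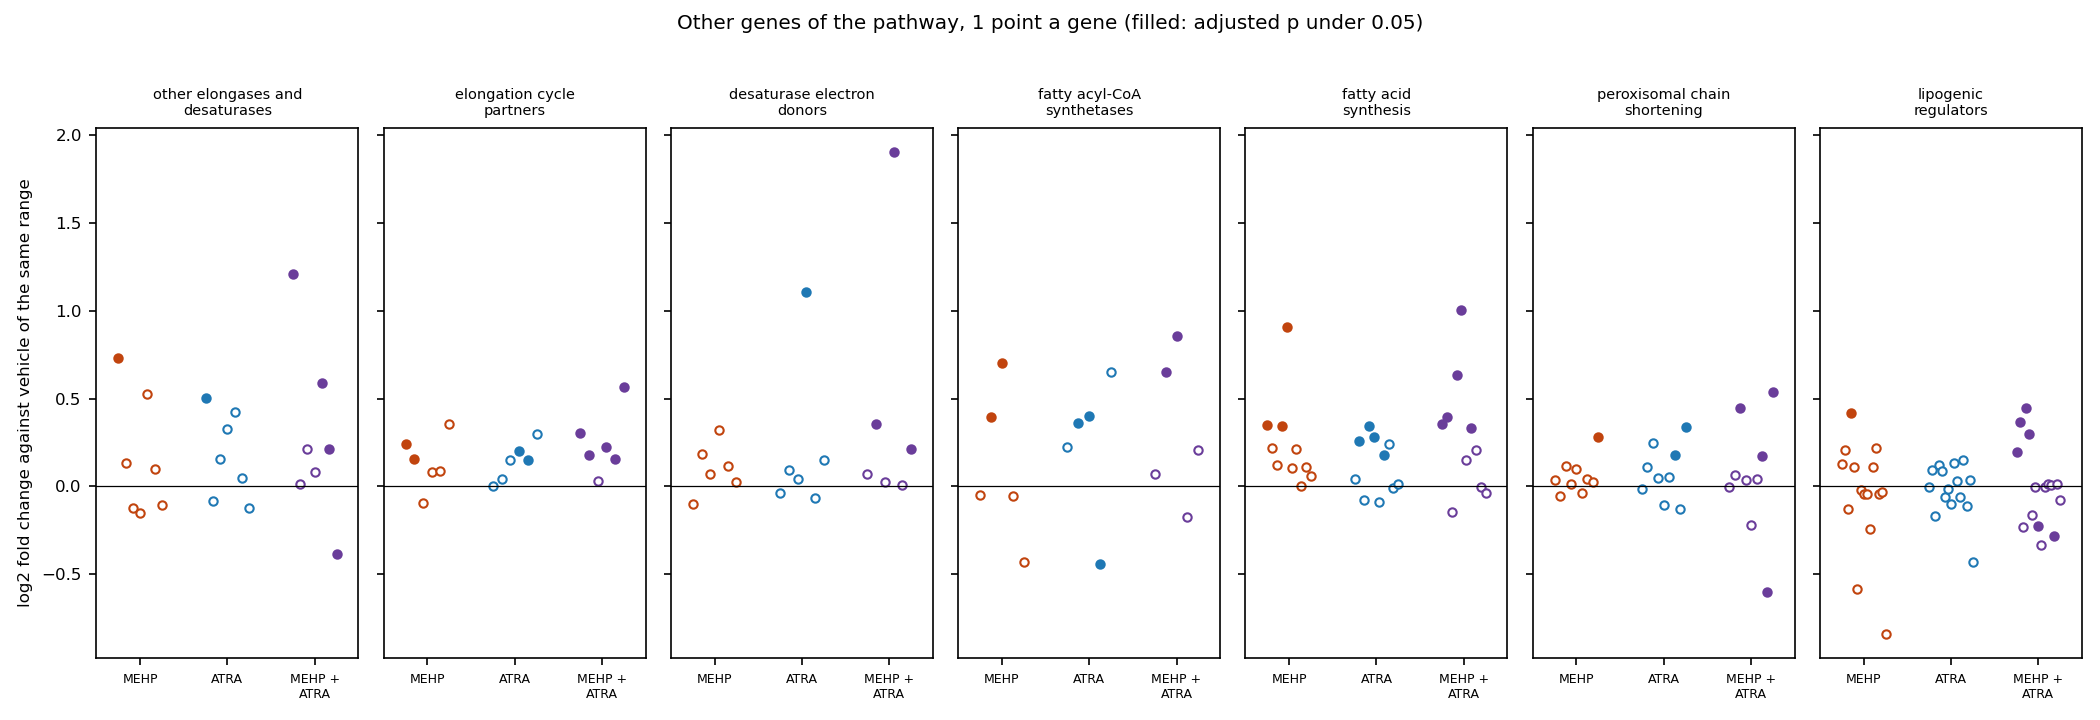
Log2 fold changes (y axis) of the other genes of the pathway, 1 point a gene and 1 panel a list, with MEHP, ATRA and MEHP + ATRA against the vehicle of the same number range. Filled points passed an adjusted p of 0.05, and most of them lie above 0, with Cyb5r2 highest at 1.91 and Abcd2 lowest at -0.60.

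The search covered 13206 genes that averaged 1 or more in log2 CPM and whose symbol was not a clone or identifier name. Among these, the 3 whose log2 fold changes in the 3 treatments were nearest to those of Fads2 were Fasn, Olfr1372-ps1 and Cadps. Their root mean square differences from Fads2 were 0.0212, 0.0257 and 0.0278. Fads2 changed by 0.33 with MEHP, 0.65 with MEHP + ATRA and 0.37 with ATRA, and Fasn by 0.34 with MEHP, 0.63 with MEHP + ATRA and 0.34 with ATRA. Olfr1372-ps1, a pseudogene, passed only with MEHP + ATRA, and Cadps passed with ATRA and MEHP + ATRA. Elovl2 had no neighbour as near: the closest were Pnmt, Cabp1 and Rtn4r, at 0.53, 0.58 and 0.69. The distances are in log2 units and few genes fell as far as Elovl2, so larger distances follow from the size of its changes. Pnmt missed the threshold with MEHP and with ATRA (adjusted p = 0.106 and 0.0664) and varied widely in upper-range vehicle (8.95 ± 10.6 CPM). Cabp1, a neuronal calcium-binding protein gene, changed by -1.72 with MEHP, -2.46 with MEHP + ATRA and -1.92 with ATRA, beside -2.43 with MEHP, -2.67 with MEHP + ATRA and -1.23 with ATRA for Elovl2. These distances describe 3 contrasts that share libraries and carry no test.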

How the data were processed

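Raw read counts per gene were deposited by the authors, with 1 table a library, and every count column belonged to a labelled sample. Per the submitters' processing notes, the tools were bcl2fastq 2.20, Trimmomatic 0.36, STAR 2.5.2b, featureCounts of Subread 1.5.2 and DESeq2. Per the labels' protocols, libraries were made from oligo(dT)-enriched RNA. The genome build, annotation and strand setting were not given in the sources used here. Gene coordinates are printed as in the deposited tables, and 91.36% of the identifiers found in GENCODE M21 (GRCm38) have the same chromosome, start and end there. Symbols covered 99.3% of the 49315 identifiers.

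Testing used edgeR 4.0.16 under R 4.3.3. The filterByExpr rule (minimum count 10) kept 19323 genes, and TMM factors were 0.975 to 1.02. A single quasi-likelihood fit of all 30 libraries had 5 groups, vehicle being split at a second title number of 500, with 25 residual degrees of freedom. Tests were two-sided, adjusted by Benjamini-Hochberg over these 19323 genes, and called under 0.05. Adjusted p-values in the text come from this edgeR test unless another tool is named. Errors after ± are SE for log2 fold changes and SD for levels. Levels are CPM after TMM scaling, and CPM per kilobase divides by the exon length in the tables.

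The 10 genes, the pathway lists and the marker lists were chosen with earlier results of these data known. Named genes were the 10 members, up to 3 called genes of each pathway list with the smallest p in each treatment, and the 3 genes most like Elovl2 and Fads2, the members with the largest changes. One result that this rule takes is not reported here. The alternatives tried were DESeq2 size factors in edgeR, DESeq2 1.42.0, limma-voom (limma 3.58.1) with sample weights, no low-count filter, fits of only the groups compared, no range term, 2 blocks on the first title number, and leaving out each library. The procedure was tested on simulated data. Promoter windows were RefSeq's (GRCm38.p6). Precision is limited by the number of libraries.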

Additional observations from a re-analysis of the deposited data

Results flagged for a closer look

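Of 50 sets of values (10 genes in 5 groups), 2 held a library whose gap to its nearest neighbour was large against the range of its group, where chance gives about 1 set in 20. ATRA replicate 2 was at 174.2 CPM for Elovl6, above the 157 to 159.8 CPM of the other 4 ATRA libraries, and without it the change with ATRA was 0.09 (adjusted p = 0.407). Upper-range vehicle replicate 5 was at 1960.1 CPM for Scd2, above the 1458 to 1625 CPM of the other 5, and without it the rise with MEHP was 0.41 (adjusted p = 4.25e-05).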

How the results depend on the processing

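Of the 21 calls on the 10 genes, 16 held under all 38 alternatives, and 17 under every fit without 1 library. None changed direction. The calls lost were those of Elovl1, Fads2 and Scd1 with MEHP, Fads1 with ATRA and Elovl1 with MEHP + ATRA, all in settings named beside them above or here. Over fits without 1 library, 5 to 7 genes changed with MEHP, 2 to 3 with ATRA, 6 to 8 with MEHP + ATRA and 4 to 5 between MEHP + ATRA and ATRA. Fitting only the groups compared gave 5 genes changed with ATRA, adding Elovl5 and Elovl6 (adjusted p = 0.0497 and 0.0249). Limma-voom gave 7 between MEHP + ATRA and ATRA, adding Elovl1, Elovl5 and Fads2 (adjusted p = 0.0109, 0.00774 and 0.0200). Without MEHP + ATRA replicate 2, Elovl1 passed there as well (0.26, adjusted p = 0.0451). DESeq2 gave 1 gene with an interaction (Elovl2) and 1 between vehicle ranges (Elovl6, adjusted p = 0.0419). With no range term, Elovl5 passed with MEHP (0.18, adjusted p = 0.0135). Elsewhere 62 values that missed the threshold changed sign, and no direction is read from them. Other scalings and filters moved the median of all genes by at most 0.0109 on the log2 scale.

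The first title number was held by as many treated as vehicle libraries in each of 9 sets, but it is not stated to pair them. Deviations of same-numbered treated and vehicle libraries correlated at -0.108 to 0.746 over 27 pairs (median 0.143, 15 of them over 0.1), and those of differently numbered ones at -0.484 to 0.447 over 90 pairs (median -0.0169, 16 over 0.1). Same-numbered pairs thus correlated more often, though not all of them passed 0.1. The main values carry no block, so their p-values leave out any structure that this number holds, and the blocked fits are given here beside them. With this number as a replicate block within ranges, 6 genes rose and 1 fell with MEHP, 1 and 1 with ATRA, 7 and 1 with MEHP + ATRA, and 4 and 1 between MEHP + ATRA and ATRA. Fads1 lost its call with ATRA (0.14, adjusted p = 0.0590), and Scd1 with MEHP + ATRA (0.30, adjusted p = 0.0316) and Fads2 over ATRA (0.35, adjusted p = 0.0277) passed. With the replicate block over both ranges, 5 rose and 1 fell between MEHP + ATRA and ATRA, with Fads2 (0.39, adjusted p = 0.00477) and Elovl5 (0.22, adjusted p = 0.0210), and Scd1 passed with MEHP + ATRA (0.31, adjusted p = 0.0250).

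Counts over all genes moved by over 1.5 times as follows. With MEHP, 912 genes became 439 in a fit of only the 2 groups and 2229 with no range term, and with ATRA 3494 became 5527 with limma-voom. Between MEHP + ATRA and ATRA, 579 became 1653 with limma-voom, 1371 (41.4% of them higher) with the block over both ranges and 340 without MEHP + ATRA replicate 1. The 6 interactions became 12 with DESeq2, 10 with no range term, 2 or 3 in 3 other settings and 3 to 8 without 1 library. The 72 genes that differed between vehicle ranges became 338 with DESeq2, 136 with limma-voom, 42 with the block over both ranges, 19 with no filter, 0 in a fit of only these groups and 10 to 169 without 1 library. The cause of these differences was not tested. Elovl7 had 6 to 39 counts a library, and how much of its spread is counting error was not tested.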
